A study of Mus musculus with 9 samples.

Results

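The MS4A genes encode small proteins that span the membrane several times and sit on the cell surface and in endosomes, mostly in blood and immune cells. Here 8 mouse members that lie side by side on chromosome 19 were followed by symbol: Ms4a4a, Ms4a4b, Ms4a4c, Ms4a4d, Ms4a6b, Ms4a6c, Ms4a6d and Ms4a7. Of these, 7 had a row among the 24411 gene rows of the count tables, and 5 (Ms4a4c, Ms4a6b, Ms4a6c, Ms4a6d and Ms4a7) had enough counts to be tested. Ms4a4a had no row and was not analysed here.

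RNA came from primary microglia of ICR mice, in 9 libraries of 3 groups of 3. Pups were 3 days old, their dissociated brains were grown as mixed glia, and cells shaken off these cultures rested for 24 h before a 4 h treatment. That treatment was 1 µM R848 (resiquimod, a synthetic compound that activates TLR7 in endosomes), 100 U/ml recombinant mouse IFN-α, or both agents at these doses (the combined group). No genotype is given and all groups share strain and age. The study's design text also names a control group, which is not analysed here, so every difference is between treatments and none is against untreated cells. Whether the replicates are separate cultures is not stated in the labels, and a p-value here covers just the spread among libraries, which may be technical.

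MS4A proteins act largely by associating with other receptors. MS4A1 is CD20 of B cells and MS4A2 is the beta chain of the high-affinity IgE receptor of mast cells, whereas the MS4A4, MS4A6 and MS4A7 genes are active in macrophages and, for some mouse Ms4a4 and Ms4a6 genes, in T cells. In the brain several are expressed by microglia and border macrophages, and human variants near MS4A4A and MS4A6A are associated with Alzheimer's disease and with the level of soluble TREM2, a microglial receptor.

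The 8 genes span 283.8 kb, chr19:11321039-11604849 of GRCm38 (GENCODE release M21), in the order Ms4a7, Ms4a4a, Ms4a4c, Ms4a4b, Ms4a6c, Ms4a6b, Ms4a4d and Ms4a6d. Ms4a7 and Ms4a6d lie on the minus strand and the others on the plus strand. All are annotated as protein coding. The bases upstream of the RefSeq start sites (GRCm38.p6, the C57BL/6J reference, not the ICR strain of these cells) are shown because neighbouring members can be compared in them. RefSeq windows were found for 7 of the 8 members, 8 windows in all. Ms4a6d had none. For the alignments, bases next to the start that are exons of other transcripts were left out. The stretches of Ms4a6c, Ms4a6b and Ms4a4b thus end 11, 80 and 6 bases before it. The first pair below is the stretch that aligned between the windows of Ms4a6c (chr19:11469193-11469357, plus strand) and Ms4a6b (chr19:11518311-11518479, plus strand), with 139 of 171 alignment columns identical (81.3%). The next pair is the stretch that aligned between Ms4a4c (chr19:11407533-11407659, plus strand) and Ms4a4b (chr19:11443427-11443552, plus strand), with 113 of 127 columns identical (89.0%). The last is the 100 bases before the start of Ms4a7 (chr19:11336147-11336246, read on the minus strand). Capitals mark matches to GAAANNGAA, which resembles the core of interferon-response elements, to GGGNNTTTC, which resembles NF-κB sites, and to AGGAAGT, which resembles the sites of ETS factors such as PU.1. Both strands were searched, N stands for any base, and the 3 motifs were chosen after the windows had been read.
Ms4a6c: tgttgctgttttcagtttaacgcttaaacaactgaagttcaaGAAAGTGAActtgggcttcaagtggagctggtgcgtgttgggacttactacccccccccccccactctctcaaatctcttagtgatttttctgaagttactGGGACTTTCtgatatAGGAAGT
Ms4a6b: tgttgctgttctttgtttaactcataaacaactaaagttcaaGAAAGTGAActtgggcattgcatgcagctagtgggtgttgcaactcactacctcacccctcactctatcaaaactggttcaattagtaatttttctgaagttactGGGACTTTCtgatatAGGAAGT
Ms4a4c: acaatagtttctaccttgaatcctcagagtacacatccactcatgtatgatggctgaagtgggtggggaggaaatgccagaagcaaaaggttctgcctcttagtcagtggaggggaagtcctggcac
Ms4a4b: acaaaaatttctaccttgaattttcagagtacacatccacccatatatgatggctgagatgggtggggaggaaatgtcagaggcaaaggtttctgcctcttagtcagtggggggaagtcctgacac
Ms4a7: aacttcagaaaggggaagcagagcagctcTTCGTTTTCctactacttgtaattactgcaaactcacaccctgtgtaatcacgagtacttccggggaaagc

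Ms4a6c and Ms4a6b had all 3 motifs in the same order, starting 133, 32 and 17 bases before the start in Ms4a6c and 206, 101 and 86 bases before it in Ms4a6b. The Ms4a6b window held a further AGGAAGT match on the other strand, 43 bases before the start. Ms4a7 had a GAAANNGAA match on the other strand 71 bases before the start shown, and another, 148 bases upstream, in the window of a further start site. The windows of Ms4a4c, Ms4a4b and Ms4a4d held none of these letters, and that of Ms4a4a held 1 GGGNNTTTC match, 247 bases upstream. In GENCODE, Ms4a4c and Ms4a6b start further upstream, at 11404770 and 11516512, so their windows lie inside the annotated genes. Bases before those GENCODE starts were not searched. Matches of different motifs did not overlap. Over 32851 RefSeq windows of 250 bases, 7.13% held GAAANNGAA, 7.69% AGGAAGT and 3.72% GGGNNTTTC. These matches describe the letters only, and a window with none says nothing on which factors act on that gene.

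Library totals ran from 2505941 to 6005578 gene counts, and the deepest library was replicate 3 of the combined group. The ribosomal transcript Rn45s held 13.3% to 26.1% of gene counts. Of the microglia markers, Itgam was well covered, at 96.2 to 99.0 CPM as group means, while Tmem119 was at 0.393 to 3.81 CPM, P2ry12 at 2.41 to 40.8 CPM, and Siglech at 0 in all combined libraries. CPM is a gene's count relative to its library's total over the tested genes, adjusted with TMM factors and expressed in the usual CPM unit. Astrocyte transcripts were also present, with the summed level of 11 astrocyte markers at 1693 to 1970 CPM in the R848 libraries, 1320 to 1652 CPM with IFN-α and 2616 to 3661 CPM with both. The libraries are bulk samples, so fewer cells of a type and less RNA per cell cannot be told apart.

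Scaled to gene length, Ms4a6d was the most abundant member in every group, with 363.2 ± 29.7 CPM per kb of exon (mean ± SD, n = 3) with R848, 400.7 ± 2.01 with IFN-α and 693.0 ± 38.4 with both. Ms4a6c came next, at 158.3 ± 24.6, 267.8 ± 17.5 and 291.7 ± 27.0 CPM per kb. Ms4a7 was at 95.8 ± 6.39, 49.5 ± 4.37 and 111.1 ± 3.62 CPM per kb. Ms4a7 ranked behind Ms4a6c in the R848 and combined groups, while in the IFN-α group it did not differ beyond the spread from Ms4a4c, at 50.0 ± 8.49 CPM per kb. Ms4a4c was at 0.801 ± 0.258 CPM per kb with R848 and 94.5 ± 8.53 with both, just under Ms4a7, with no overlap between the libraries of these genes in the combined group. Ms4a6b was at 15.5 ± 1.61, 30.8 ± 3.13 and 37.9 ± 3.21 CPM per kb. Ms4a4b and Ms4a4d were under 1 CPM per kb in every library.

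**Figure D1:**
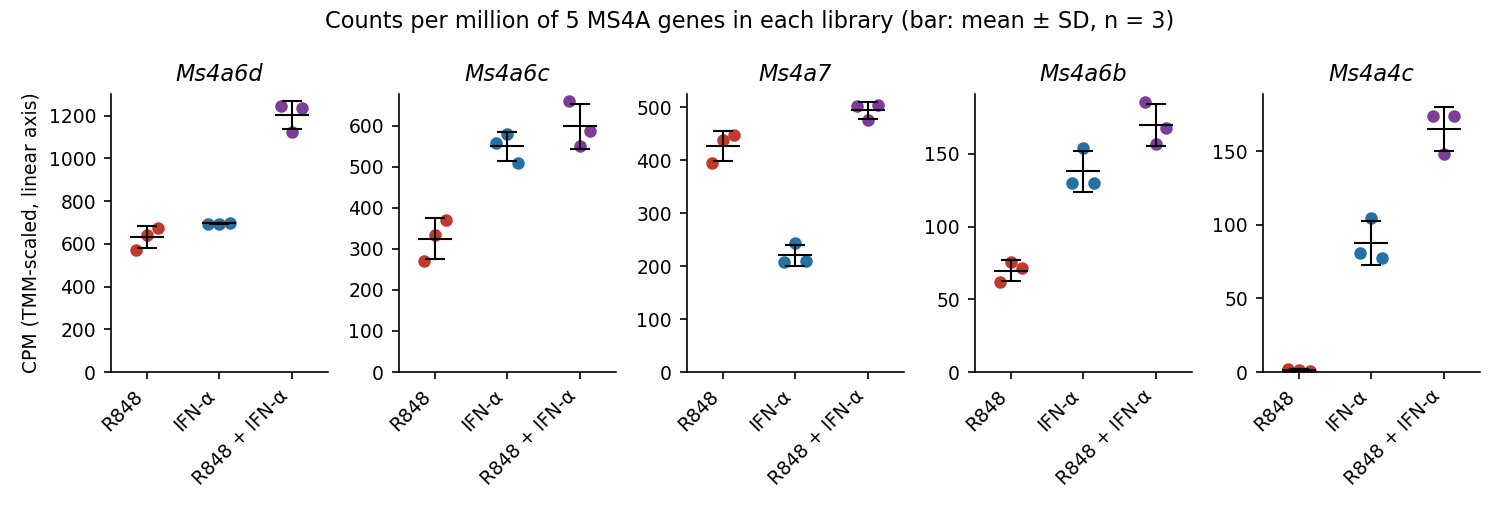
Level of each tested MS4A gene in CPM (on TMM-scaled totals, linear axes from 0, 1 scale per gene) in the 3 libraries of each group, with bars for the mean ± SD. Ms4a4c runs from near 0 with R848 to 148.1 to 174.3 CPM with both agents, Ms4a7 is lowest with IFN-α, and Ms4a6d is highest with both.

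The response of the 5 tested members was first compared between the single agents, which addresses how TLR7 stimulation and type I interferon differ. With R848, 1 of the 5 was higher than with IFN-α and 3 were lower (edgeR quasi-likelihood test, Benjamini-Hochberg adjusted p under 0.05). The lower ones include Ms4a4c, which passed the low-count filter only through the groups where it is high. Among all 11002 genes tested, 18.4% were called higher and 19.0% lower. The median log2 fold change was -0.76 over the 5 members and 0.02 over all genes.

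Ms4a4c, a gene commonly listed among the interferon-responsive genes of mouse macrophages, was close to the detection limit with R848. It had 6, 5 and 3 counts in R848 replicates 1 to 3, against 209, 289 and 243 with IFN-α and 465, 343 and 867 with both. In CPM these are 1.74, 1.58 and 0.889 with R848, then 80.9, 104.7 and 77.3 with IFN-α, and 173.7, 148.1 and 174.3 with both. Every R848 library lay far below every other library, and the IFN-α and combined libraries did not overlap either. The gene passed the low-count filter only through the groups that received IFN-α. From the summed counts, 14 with R848 and 741 with IFN-α, the IFN-α to R848 ratio was 62.3-fold (95% exact counting interval 36.9 to 114.5, counting error only). The fitted log2 fold change of R848 against IFN-α was -5.93 ± 0.23 (SE). It is given as a size without a p-value because of how the gene passed the filter. Of the 101-base stretches of its annotated exons, 1.60% also occur in Ms4a4b.

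Ms4a6b, a family member described in T cells as well as macrophages, was at 61.6, 75.6 and 71.7 CPM in the R848 libraries and at 130.1, 154.3 and 129.8 CPM in the IFN-α libraries. The groups did not overlap, and the log2 fold change of R848 against IFN-α was -0.99 ± 0.11 (edgeR adjusted p = 9.16e-09). Ms4a6c, its neighbour with a similar upstream stretch, was at 270.6, 332.5 and 370.5 CPM with R848 and 556.8, 580.1 and 509.8 CPM with IFN-α. The exons of Ms4a6c overlap those of BE692007 on the other strand, and the counts keep the strand. Ms4a6c too was lower in every R848 library, with a log2 fold change of -0.76 ± 0.10 (adjusted p = 2.00e-07).

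Ms4a6d, at the far end of the cluster, differed least between the single agents. Its levels were 573.3, 643.2 and 673.8 CPM with R848 and 693.4, 693.1 and 699.3 CPM with IFN-α. The libraries did not overlap, but the gap was small and the test did not call it (log2 fold change -0.14 ± 0.08, 95% interval -0.30 to 0.02, edgeR adjusted p = 0.185).

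Ms4a7, used as a marker of border macrophages and of macrophages that enter the brain, went the other way. It was at 394.4, 437.6 and 448.1 CPM with R848 and at 208.7, 243.0 and 209.9 CPM with IFN-α. All R848 libraries were above all IFN-α libraries, and the log2 fold change was 0.95 ± 0.09 (edgeR adjusted p = 2.20e-10). The summed level of 10 other border macrophage markers was 558.9 to 639.0 CPM with R848, 662.8 to 847.8 with IFN-α and 774.8 to 883.4 with both. Of the 7 of these that were tested, 2 were higher and 3 lower with R848 than with IFN-α. Over all genes tested, 18.4% were higher and 19.0% lower. Pf4 and Clec12a were higher (1.24 ± 0.24 and 1.25 ± 0.11), while Siglec1 (-1.60 ± 0.36), the mannose receptor gene Mrc1 (-1.39 ± 0.13) and F13a1 (-0.47 ± 0.10) were lower. Siglec1 alone gave 80.6 ± 31.9 CPM of the sum with R848, 244.8 ± 72.1 with IFN-α and 293.9 ± 36.3 with both. Cd163 was at 0 in all libraries. The part of such cells in the level of Ms4a7 was not tested.

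**Figure D2:**
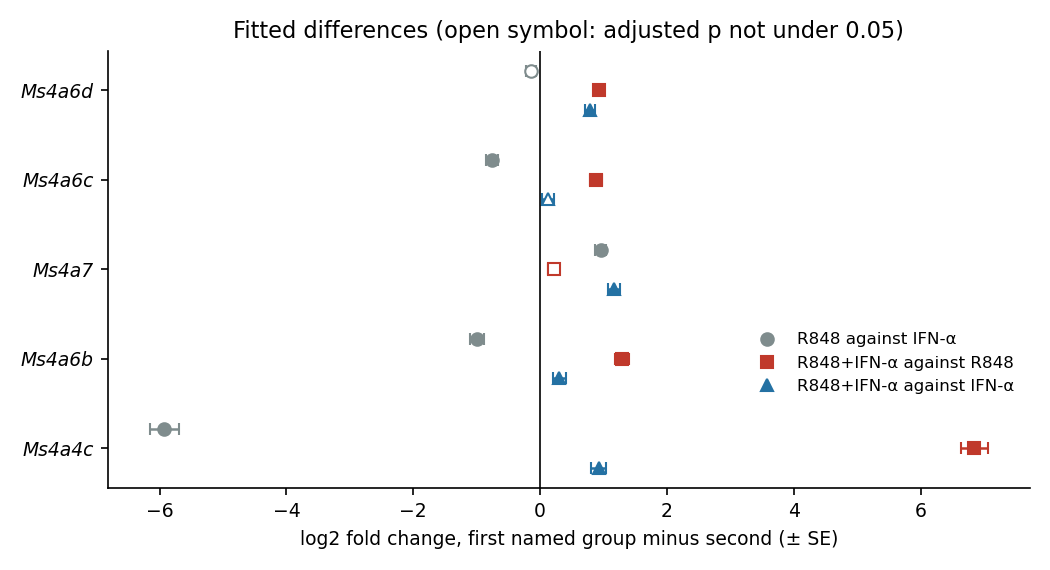
Fitted log2 fold change ± SE (edgeR, x axis) of the 5 tested MS4A genes (y axis) in the 3 comparisons, the first named group minus the second, with open symbols where the adjusted p was not under 0.05. Ms4a4c and Ms4a6b lie left of 0 for R848 against IFN-α and right of 0 in the other comparisons, whereas Ms4a7 lies right of 0 in all 3.

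The combined group was next compared with R848 alone, which addresses what IFN-α adds to R848. This comparison shares the R848 libraries with the one above, and the next shares the combined libraries. With both agents, 4 of the 5 tested members, Ms4a4c among them, were higher than with R848 and none was lower. Over all 11002 genes, 19.2% were called higher and 1835 genes were called lower. The median log2 fold change was 0.93 over the members and -0.03 over all genes.

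Ms4a4c differed most, with 1675 summed counts in the combined group against 14 with R848, a ratio of 120.0-fold (95% exact counting interval 71.3 to 219.9). Its fitted log2 fold change was 6.85 ± 0.21, again given as a size only. Ms4a6b was at 185.3, 156.8 and 167.5 CPM with both agents, above all its R848 libraries. It rose by 1.29 ± 0.11 on the log2 scale (edgeR adjusted p = 3.37e-11). Ms4a6c was at 658.5, 549.8 and 585.8 CPM with both and rose by 0.88 ± 0.10 (adjusted p = 1.49e-08). Ms4a6d, close to level between the single agents, was at 1245, 1125 and 1236 CPM with both, and rose by 0.93 ± 0.08 (adjusted p = 8.61e-11).

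Ms4a7 was at 502.7, 476.4 and 505.5 CPM with both agents, slightly above each R848 library. The log2 fold change of 0.21 ± 0.09 did not pass the test (95% interval 0.05 to 0.38, edgeR adjusted p = 0.0511). It passed with size factors computed as in DESeq2 (adjusted p = 0.0356), with the DESeq2 test (0.0468), with Rn45s left out (0.0438) and without R848 replicate 3 (0.0458). With library totals alone its sign turned to -0.18 (adjusted p = 0.248). That scaling moves the median of all genes by -0.39, and relative to that median Ms4a7 was at 0.24, against 0.25 with TMM factors. A change of scaling shifts all genes by nearly the same amount, so these near-equal values were fixed in advance. They are no check on the sign. Library totals alone also move the share of calls that are higher from 53.5% to 19.1% of all called genes, and upper-quartile factors move it to 37.5%.

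The combined group was then compared with IFN-α alone, which addresses what R848 adds to IFN-α. Again 4 of the 5 tested members were higher and none lower. Over all 11002 genes, 18.5% were called higher and 1617 genes were called lower. The median log2 fold change was 0.79 over the members and -0.01 over all genes.

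Ms4a7 differed most here and stood at more than its IFN-α level in every combined library (1.17 ± 0.09, edgeR adjusted p = 4.55e-12). Ms4a4c rose by 0.92 ± 0.12 (adjusted p = 1.33e-07) and Ms4a6d by 0.79 ± 0.08 (adjusted p = 3.62e-09), both without overlap between the groups. So the gene at 1.40 ± 0.452 CPM with R848 alone was at 165.4 ± 14.9 CPM when R848 was added to IFN-α, against 87.6 ± 14.9 CPM with IFN-α alone.

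Ms4a6b differed less, at 0.30 ± 0.10 (edgeR adjusted p = 0.0257), with its lowest combined library at 156.8 CPM and its highest IFN-α library at 154.3 CPM. This call was lost with upper-quartile factors (adjusted p = 0.107) and without IFN-α replicate 1 (0.107), IFN-α replicate 3 (0.124), combined replicate 1 (0.134) or combined replicate 3 (0.0609). With library totals alone the value was -0.01 (adjusted p = 0.952), where the median of all genes moves by -0.31. Relative to the median Ms4a6b was at 0.31 under both scalings, a value that a change of scaling can hardly move and so no check on its sign. Ms4a6c overlapped between the groups and was not called (0.12 ± 0.10, 95% interval -0.07 to 0.32, adjusted p = 0.359), and its sign turned with library totals alone (-0.18, adjusted p = 0.285). In this comparison the share of calls that are higher moves from 55.7% to 21.7% with library totals alone and to 44.8% with upper-quartile factors.

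**Figure D3:**
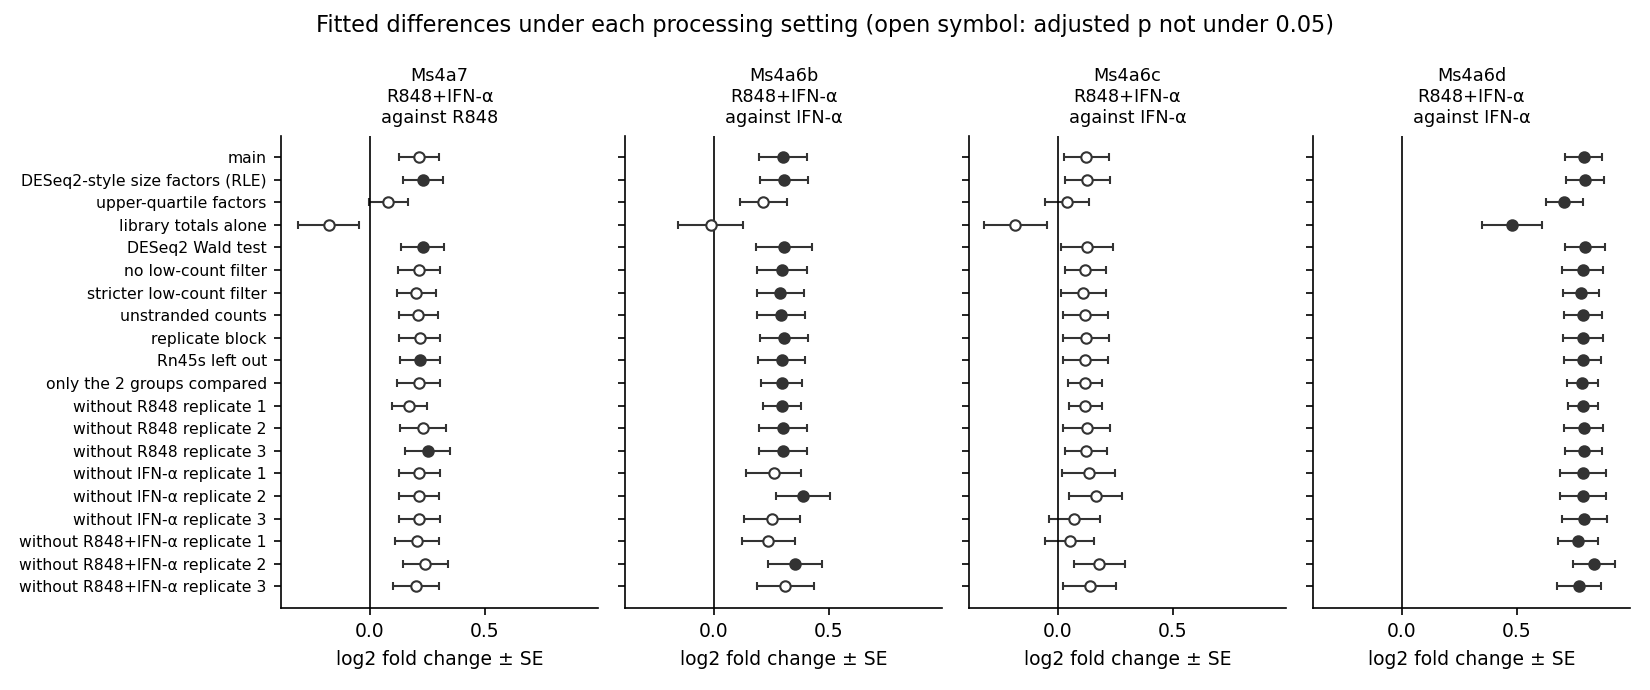
Fitted log2 fold change ± SE (x axis) of 4 MS4A genes in a comparison with the combined group, under TMM scaling (labelled main) and 19 other settings (y axis), with open symbols where the adjusted p was not under 0.05. The values of Ms4a7, Ms4a6b and Ms4a6c fall below 0 with library totals alone, while that of Ms4a6d stays between 0.48 and 0.84.

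A member was called above both single agents where it was higher in the combined group than in each of them, by the larger of both p-values adjusted over all genes. Ms4a6d (smaller log2 fold change 0.79, edgeR adjusted p = 1.43e-08) met this. Ms4a4c met it too, with a smaller log2 fold change of 0.92. That value is given as a size without a p-value, because Ms4a4c passed the low-count filter only through the groups that received IFN-α. With Ms4a4c counted these are 2 of the 5 tested members, and 7.33% of all genes met the rule. Ms4a6b (adjusted p = 0.0661), Ms4a7 (0.131) and Ms4a6c (0.685) did not. Without R848 replicate 1 or without IFN-α replicate 2, Ms4a6b met it as well (adjusted p = 0.0109 and 0.0387). All 5 genes had their highest mean in the combined group. The group means of Ms4a4c, Ms4a6b, Ms4a6c and Ms4a6d were lowest with R848, although that of Ms4a6d was not called apart from IFN-α, and the mean of Ms4a7 was lowest with IFN-α. The difference between the effect of both agents together and the sum of their single effects could not be tested without untreated libraries.

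Ms4a4b, which in T cells associates with the co-stimulatory receptor GITR, and Ms4a4d were below the low-count filter. Ms4a4b had 1, 0 and 0 counts with R848, 6, 7 and 8 with IFN-α and 0, 4 and 10 with both. The 3 IFN-α libraries were within 2.32 to 2.54 CPM, and the combined libraries ran from 0 to 2.01 CPM. The IFN-α to R848 ratio of summed counts was 24.7-fold (95% exact counting interval 3.98 to 1022), and that of the combined group to R848 was 14.0-fold (2.14 to 593.6). Reads on the opposite strand of Ms4a4b summed to 31 with R848, 29 with IFN-α and 62 with both, more than on its own strand. Ms4a4d had 0, 0 and 0 counts with R848, 0, 0 and 3 with IFN-α and 0, 1 and 5 with both, and its opposite-strand reads, at 16, 6 and 37, again exceeded these. What the opposite-strand reads come from was not tested. No fold is given for Ms4a4d, since 5 of its 6 counts in the combined group lie in replicate 3 and the IFN-α group was at the floor of 3 counts. With no low-count filter none of its comparisons was called (edgeR adjusted p from 0.0895 to 0.773). GITR itself (Tnfrsf18) had 4 counts in the combined libraries and was at 0 in the others. With no low-count filter Ms4a4b was tested, at -4.17 ± 0.98 for R848 against IFN-α (edgeR adjusted p = 1.54e-04), 3.33 ± 1.07 for both against R848 (adjusted p = 0.0115) and -0.84 ± 0.62 for both against IFN-α (adjusted p = 0.433). With unstranded counts, which add the opposite-strand reads, these were -0.87 ± 0.34 (adjusted p = 0.0448), 1.26 ± 0.32 (adjusted p = 0.00243) and 0.39 ± 0.30 (adjusted p = 0.346). Its last value thus changes sign with the strand counted.

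The summed level of the 7 members with a row was 1452 ± 136 CPM with R848, 1693 ± 76.3 CPM with IFN-α and 2632 ± 157 CPM with both. The lowest combined library, at 2459 CPM, was above the highest single-agent library, at 1778 CPM. The make-up of this sum, as shares of length-scaled counts, differed between groups. Ms4a6d held 57.4 ± 0.930% with R848, 50.2 ± 2.06% with IFN-α and 56.4 ± 0.788% with both. Ms4a6c held 24.9 ± 1.51%, 33.5 ± 1.13% and 23.7 ± 1.03%. It was thus higher in every IFN-α library than in any other. The share of Ms4a7 was 15.2 ± 0.496% with R848, 6.19 ± 0.338% with IFN-α and 9.06 ± 0.308% with both, without overlap. Ms4a4c went from 0.130 ± 0.0514% with R848 to 6.24 ± 0.823% with IFN-α and 7.68 ± 0.286% with both, and Ms4a6b held 2.45 ± 0.136%, 3.85 ± 0.257% and 3.08 ± 0.106%. Lengths are exon unions of GENCODE genes, which may exceed the transcripts made. Without length scaling Ms4a7 held 29.4% with R848, 13.01% with IFN-α and 18.8% with both, and Ms4a6b held 4.80%, 8.14% and 6.45%. Ms4a6c then held 22.3% with R848, less than Ms4a7, so the rank of these genes in that group depends on the lengths used.

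**Figure D4:**
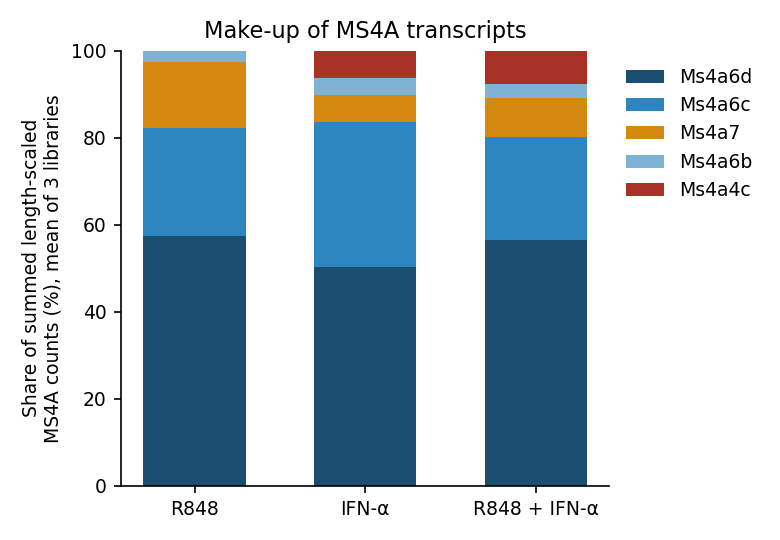
Mean share (y axis, %) of each tested MS4A gene in the summed length-scaled counts of the family, per group (x axis, mean of 3 libraries). Ms4a6d holds 57.4%, 50.2% and 56.4%, and the Ms4a4c band is close to absent with R848 (0.130%).

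Ratios between members within a library do not depend on its scaling factor. The 6 pairs without Ms4a4c were tested, since Ms4a4c had passed the filter only through the groups where it is high. An exact permutation test of the 3-group F statistic over the 9 libraries, added after seeing the data, gave p = 0.00357 for 5 of the 6, the smallest this design allows (adjusted over 6 pairs 0.00429). For Ms4a6c to Ms4a6d it gave an exact p of 0.0250 (adjusted 0.0250). The pairs share genes and libraries and are not independent. The per-kb level of Ms4a6d was 3.79-fold that of Ms4a7 with R848, 8.11-fold with IFN-α and 6.23-fold with both. For the neighbours Ms4a6b and Ms4a6c, the ratio went from 0.0987 with R848 to 0.115 with IFN-α and 0.130 with both. The ratio of Ms4a6c to Ms4a6d was 0.433, 0.667 and 0.420, so it stood out in the IFN-α group.

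Genes whose levels ran most alike were listed by Pearson's r of log2 CPM over the 9 libraries. The libraries form 3 groups, so a high r mainly records the same order of the groups, and it is given as a description. Closest to Ms4a4c were Tap1 (r = 0.9992), the peptide transporter of MHC class I presentation, the receptor kinase gene Axl (0.9989) and Tle4 (0.9985). Tap1 was at 30.9 CPM with R848, 402.1 with IFN-α and 647.8 with both. Ms4a6b was closest to Snx6 (0.9957), Mier3 (0.9942) and Cd47 (0.9908), the ligand that restrains phagocytosis. Ms4a6c was closest to Wdfy2 (0.9913), Sco1 (0.9904) and Lsm14a (0.9829), and Ms4a6d to the Src-family kinase gene Lyn (0.9955), Carhsp1 (0.9929) and Anxa7 (0.9909). Lyn was at 551.7, 652.1 and 1104 CPM. Ms4a7 was closest to Mir22hg (0.9956), the zinc transporter gene Slc39a1 (0.9947) and Bcl2a1b (0.9943), whose close copies make its count uncertain. Among the members, r was 0.976 for Ms4a4c with Ms4a6b, 0.976 for Ms4a6b with Ms4a6c and -0.21 for Ms4a4c with Ms4a7.

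The other genes of the cluster's neighbourhood were compared to see where the members differ from them. Within 500 kb of the outermost members 65 other genes are annotated, 40 had a row and 10 were tested. Of the 10, R848 against IFN-α gave none higher and 2 lower, 4 were higher with both than with R848, and 3 were higher with both than with IFN-α. Over all genes, 19.0% were lower in the first comparison, and 19.2% and 18.5% were higher in the others. The counts of 2 and 3 of the 10 are near these shares. AW112010, a transcript annotated as noncoding on the Ms4a7 side of the cluster, was at 100.6 ± 3.00 CPM with R848, 109.1 ± 14.3 with IFN-α and 635.1 ± 44.3 with both, and rose by 2.66 ± 0.10 and 2.54 ± 0.10 against the single agents. Slc15a3, an endolysosomal peptide and histidine transporter gene, was at 737.0 ± 88.3, 658.2 ± 46.3 and 1589 ± 54.7 CPM, and rose by 1.11 ± 0.09 and 1.27 ± 0.09. Both share with Ms4a6d the order of levels in which the combined group is highest and the single agents are close. Stx3, a syntaxin of vesicle fusion, had values of -1.42 ± 0.14 for R848 against IFN-α, 1.95 ± 0.14 for both against R848 and 0.53 ± 0.12 for both against IFN-α. Ccdc86 was lower with R848 than with IFN-α (-1.05 ± 0.17) and rose by 0.77 ± 0.17 with both against R848.

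**Figure D5:**
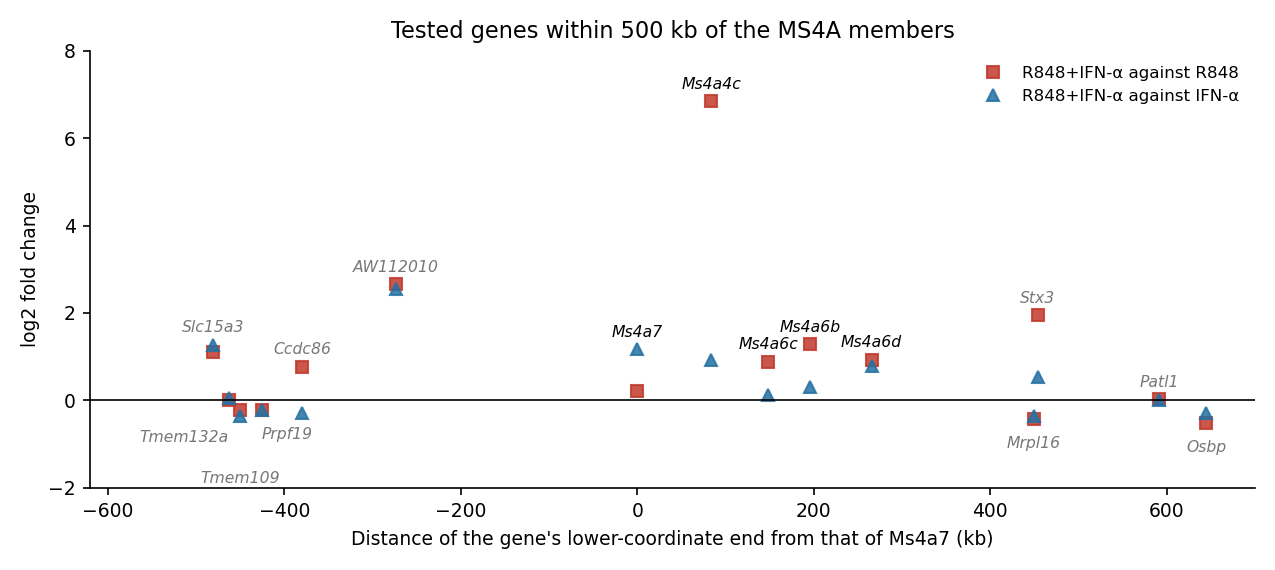
Log2 fold change of the combined group against R848 and against IFN-α (y axis) of the 15 tested genes within 500 kb of the MS4A members, by distance in kb of each gene's lower-coordinate end from that of Ms4a7 (x axis). AW112010 and Slc15a3 lie above 1 in both comparisons, and Tmem132a, Prpf19, Tmem109, Mrpl16, Patl1 and Osbp, none of which was called, lie near or below 0.

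Of the 10 other MS4A genes listed, 9 had a row and none was tested. Ms4a1 and Ms4a15 had 1 count each in the combined libraries, Ms4a8a had 1 with R848, 1 with IFN-α and 4 with both, and the other 6 were at 0 throughout. The related genes Tmem176a and Tmem176b, whose proteins resemble MS4A proteins, were both tested. Tmem176b was at 208.3 ± 11.2 CPM with R848, 126.4 ± 5.46 with IFN-α and 134.7 ± 7.56 with both. It was higher with R848 than with IFN-α (0.72 ± 0.09) and fell by 0.63 ± 0.09 when IFN-α was added to R848. Tmem176a had values of 0.39 ± 0.14 and -0.46 ± 0.13, both called, and neither gene was called between the combined group and IFN-α.

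Of 8 genes listed for partners of MS4A proteins and for the TREM2 pathway, 7 were tested. Against IFN-α, R848 had 4 higher and 3 lower, and the combined group 4 higher and 3 lower. Against R848, the combined group had none higher and 4 lower. Over all 11002 genes, the higher and lower calls in these comparisons were 2024 and 2095, 2035 and 1617, and 2112 and 1835. Trem2 was at 223.4 ± 23.6 CPM with R848, 406.8 ± 49.9 with IFN-α and 213.7 ± 20.7 with both. It was lower with R848 than with IFN-α (-0.87 ± 0.10, edgeR adjusted p = 2.10e-08), as Ms4a6b and Ms4a6c were, and lower with both agents than with IFN-α (-0.92 ± 0.10, adjusted p = 1.07e-08), where these members were not. Syk, the kinase downstream of TREM2 and Dectin-1, was higher with R848 than with IFN-α (2.73 ± 0.13), as were Adam17 (1.06 ± 0.11), a protease that sheds TREM2, and Clec7a (0.88 ± 0.09), which encodes Dectin-1, a receptor that associates with MS4A4A. In the combined group Syk, Adam17, Clec7a and Tyrobp were lower than with R848, the last at -0.38 ± 0.09. Against IFN-α the combined group had Syk (2.21 ± 0.13), Adam17 (0.65 ± 0.11), Clec7a (0.57 ± 0.09) and Fcer1g (0.55 ± 0.08) higher, and Adam10 (-0.68 ± 0.10) and Tyrobp (-0.62 ± 0.09) lower.

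Markers of the cell types that the preparation could hold moved in part with the members. The 12 microglia markers summed to 2238 to 2502 CPM with R848, 3777 to 4053 CPM with IFN-α and 2651 to 2904 CPM with both. Of the 11 tested, 1 was higher and 6 lower with R848 than with IFN-α, 5 higher and 3 lower with both than with R848, and 1 higher and 7 lower with both than with IFN-α. Over all 11002 genes, the higher and lower calls in these comparisons were 2024 and 2095, 2112 and 1835, and 2035 and 1617. Itgam, encoding the myeloid integrin CD11b, was at 96.2 ± 10.1, 96.8 ± 7.26 and 99.0 ± 2.00 CPM, with log2 fold changes of -0.01 ± 0.11, 0.04 ± 0.11 and 0.03 ± 0.11, none of them called. Of the 11 astrocyte markers 3 were higher and 4 lower with R848 than with IFN-α, and 9 and 6 were higher and none lower with both than with R848 and with IFN-α. The natural killer cell markers Ncr1, Prf1, Gzma and Nkg7 were at 0 in all libraries, as were the B cell gene Cd79a, the mast cell genes Cpa3 and Mcpt8, and the neutrophil genes Mpo and Elane. Of the T cell genes, Cd3g and Cd2 were at 0 in all libraries. Of the 11 T cell genes, 3 were tested and had lower levels with R848 than with IFN-α, as Ms4a4c, Ms4a6b and Ms4a6c had. They were Cd28 (-1.92 ± 0.27), Lck (-1.84 ± 0.36) and Il7r (-1.67 ± 0.24). Of these 3, only Lck was called between both agents and R848 (1.98 ± 0.35). With both agents Cd28 (-2.51 ± 0.29) and Il7r (-1.14 ± 0.22) were lower than with IFN-α, where no tested member was called lower. Lck was not called there (0.14 ± 0.28). Cd247, which was not tested, went the other way, with 26 counts with R848, 0 with IFN-α and 15 with both. Cd5, also not tested, had 9, 5 and 1. Of the monocyte markers Chil3 was at 0 and Ly6c2 was at 0.121 to 0.399 CPM as group means, while Vcan, the only 1 tested of 6, was at 108.3 ± 14.7 CPM with R848, 114.0 ± 9.71 with IFN-α and 181.9 ± 23.0 with both, and was higher with both than with either agent (0.75 ± 0.11 and 0.67 ± 0.11). The neutrophil gene S100a8 was higher with R848 than with IFN-α (1.16 ± 0.25), while S100a9 was at 0 in all libraries. The mast cell gene Hdc was lower with R848 than with IFN-α (-0.92 ± 0.33). It was higher with both than with R848 or IFN-α (2.24 ± 0.28 and 1.32 ± 0.26). Kit, the other mast cell gene tested, was called in none of the comparisons. Of the 7 endothelial genes, 3 were tested. Kdr and Flt1 had lower levels with R848 than with IFN-α (-5.00 ± 0.35 and -2.83 ± 0.34), while Cdh5 was not called (-0.03 ± 0.20). Those not tested were at or near 0. Emcn was at 0 in all libraries. Pecam1 had 2, 1 and 5 counts with R848, IFN-α and both, Tek had 1, 3 and 2, and Cldn5 had 1, 0 and 0. The part of any of these cells in the MS4A levels was not tested.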

How the data were processed

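The authors deposited whole-number read counts per gene and strand for 9 libraries, not normalized. The submitters' processing notes name CASAVA 1.8.2 and Trimmomatic 0.33, then STAR 2.5.1, DESeq2 and build mm10. The annotation they used was not given in the sources used here. Libraries were directional and depleted of ribosomal RNA, per the labels' protocols. Reverse-strand counts were used (forward-strand counts were 1.09% to 1.50% of both). Reads mapping to several places are not in these counts.

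Genes were filtered with filterByExpr (minimum count 10, minimum total 15, by group), scaled with TMM factors and fitted as group means over all 9 libraries with edgeR 4.0.16 in R 4.3.3 (robust quasi-likelihood test, Benjamini-Hochberg over 11002 genes, called under 0.05). The code was tested on simulated data. An SE is the size of the log2 fold change over the root of its F statistic, and 95% intervals are normal ones from it. Positions and exon lengths are from GENCODE M21 (GRCm38), upstream sequence from RefSeq (GRCm38.p6).

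All members are named whatever they show, with up to 3 called genes of largest change per other list and comparison, and the 3 named genes of largest r per member. Cell type markers, Itgam, Tyrobp, Tnfrsf18 and the other MS4A genes were named after their values were seen. The members and lists were chosen with earlier results of these data known. Deviations of same-numbered libraries from their group means correlated at -0.10 to 0.06, and those of differently numbered libraries at -0.09 to 0.06. Whether same-numbered libraries share a culture or preparation was not tested. Alternatives were other scalings, filters and strands, DESeq2 1.42.0, fewer groups, Rn45s left out, a replicate block, no length scaling, and each library left out.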

Additional observations from a re-analysis of the deposited data

How the results depend on the processing

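Over 285 alternative values of the 5 tested members in the 3 comparisons, 273 kept their direction and their side of the threshold, 5 lost a call, 4 gained one and 3 changed sign. All 3 sign changes came with library totals alone: -0.18 for Ms4a7 in the combined group against R848, and -0.0125 for Ms4a6b and -0.18 for Ms4a6c in the combined group against IFN-α. With that scaling, 6157 genes were called between the combined group and R848, 1173 higher and 4984 lower, against 3947 with TMM factors. The cause was not tested. Leaving out each library in turn moved the log2 fold change of Ms4a7 between 0.17 and 0.25 against R848 and that of Ms4a6b between 0.24 and 0.39 against IFN-α. With the replicate block these were 0.22 (adjusted p = 0.0555) and 0.31 (adjusted p = 0.0219), and the replicate block changed no call of a member. The members called numbered 4 to 5, 4 to 5 and 3 to 4 over all settings in R848 against IFN-α, the combined group against R848 and the combined group against IFN-α. With no low-count filter 7 members were tested, and with unstranded counts 6. In R848 against IFN-α the count of 5 came only with these settings, where Ms4a4b was the added call. Ms4a6d was called in that comparison in no setting. In the combined group against R848 the added call was Ms4a4b in these settings and Ms4a7 in others. Ms4a6d was above both single agents in every setting run. So was Ms4a4c, which in the main fit passed the low-count filter only through the groups that received IFN-α. Depth limits Ms4a4b and Ms4a4d, at 21 or fewer counts in any group, and Ms4a4c with R848, at 14 counts, so their ratios have wide intervals. Nothing here compares a treatment with untreated cells.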
